A study of Mus musculus with 4 samples.

Results

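The pyruvate dehydrogenase complex and the enzymes that switch it were followed through 10 genes: 4 kinases (Pdk1, Pdk2, Pdk3 and Pdk4), 2 phosphatases (Pdp1 and Pdp2) and 4 subunits of the complex (Pdha1, Pdhb, Dlat and Pdhx). They were selected by gene symbol as members of 1 enzyme system, from a table of 22138 genes. The comparison described here was already known: Pdk1 had the lowest change of log2(RPKM + 0.5) in it. The values of these 10 genes in that comparison are therefore a description, and no p-value is given for them. All 10 were found in the table, and all 10 passed the filter on low values, which asked for 0.5 RPKM or more on average.

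The RNA came from TT2, a female embryonic stem cell line derived from C57BL/6xCBA mice, held undifferentiated without feeder cells in medium with serum and LIF, a cytokine that keeps such cells pluripotent. Control cells received control siRNA (2 libraries) and the others siRNA against Hnrnpk (2 libraries), which encodes the nucleic acid binding protein hnRNP K. Both groups were transfected with siRNA at 100 nM and, 24 hours later, at 50 nM, and were harvested about 72 hours after the second transfection. The sources used here name no siRNA sequence, so all of these values come from 1 cell line and a knockdown whose off-target matches were not examined. Nothing in the labels beyond the words for replicates says whether the libraries of a group came from separate cultures, so the spread between them may be partly technical.

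Pyruvate dehydrogenase sits at the entry from glycolysis to the citrate cycle: in the mitochondrial matrix it turns pyruvate into acetyl-CoA. The E1 component, a tetramer of PDHA1 and PDHB, removes carbon dioxide from pyruvate. The E2 component DLAT, through its lipoyl groups, carries the acetyl group to coenzyme A, and PDHX tethers the E3 component, dihydrolipoyl dehydrogenase, to the core. Kinases of the PDK family phosphorylate serines of PDHA1 and so turn the complex off, and the phosphatases PDP1 and PDP2 turn it on again. PDK1 is a known target of hypoxia-inducible factors and PDK4 a known target of fasting signals. Pluripotent cells are known for a high rate of glycolysis.

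The values are RPKM, reads scaled to gene length and to the mapped reads of the library, so levels of different genes can be set side by side. Hnrnpk itself measured 236 and 226 RPKM with control siRNA, against 68.0 and 70.5 RPKM after its siRNA, in the direction of the labels. Low values move in whole steps, which give relative depths of 1, 0.982, 0.891 and 0.882, the first pair for control siRNA. With the annotated exon lengths, the 10 genes then rest on about 608 to 75138 reads or read pairs in a library, the fewest for Pdp1. All 11 embryonic stem cell markers searched for were measured in every library. Their summed RPKM was 3968 to 4135 in the control libraries and 4806 to 5116 after Hnrnpk siRNA. Of the 11, 3 were called higher and 4 lower, against 32.2% and 35.0% of all genes tested. The highest of them, Dppa5a, went from 1320 and 1276 RPKM to 2164 and 2451 RPKM, so it weighs most in the sums. The 4 called lower were Sox2, Fgf4, Utf1 and Tdgf1. Single markers are named in this paragraph after their values were seen. Summed RPKM of 6 primitive endoderm markers was 5.06 to 5.08 in the control libraries and 29.7 to 30.3 after Hnrnpk siRNA (4 of 4 tested called higher). For 6 trophoblast markers it was 3.53 to 3.93 and then 16.5 to 16.6 (3 of 3 tested higher). These sums rest mostly on the tested markers Eomes, Gata3 and Hand1. Of those too low to be tested, Cdx2 and Krt7 were higher after Hnrnpk siRNA. Elf5 was lower, at 0.105 and 0.109 RPKM and then 0.0608 and 0.0705 RPKM. For 4 markers of a state like the two-cell embryo the summed RPKM was 0.433 to 0.477 and then 20.2 to 22.6 (4 of 4 higher). All 4 passed the filter on low values only through the Hnrnpk siRNA libraries, so a call of these could only be higher. The 7 fibroblast markers summed to 8.02 to 9.46 and then to 4.08 to 4.32 (2 of 2 tested lower). The 4 neural markers summed to 108 to 120 and then to 89.99 to 99.8 (1 higher and 3 lower). Most of the neural sum was Tubb3, at 99.0 and 111 RPKM and then 82.2 and 92.6 RPKM. Neurod1 was the neural marker called higher. Beside each of these counts stand the shares over all genes tested, 32.2% called higher and 35.0% lower. None of these markers was at 0 in all libraries. The part of these cells in the results below was not tested, and in bulk RNA fewer cells of a type and less RNA per cell cannot be told apart.

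Of the 10 genes, 9 were called by limma (adjusted p under 0.05, Benjamini-Hochberg over the 12486 genes tested), 4 higher and 5 lower after Hnrnpk siRNA. Across all genes tested, 67.2% were called, 32.2% higher and 35.0% lower. The libraries of the groups did not overlap in 9 of the 10 genes, against 84.7% of all genes tested. The median log2 change of the 10 genes was -0.15, against -0.01 over all genes tested, and the median size of their change was 0.55, against 0.32. Only Pdk1 passed a log2 change of 1 in size, as 1063 of all genes tested did. The calls followed no single direction by role: 3 kinases fell and 1 rose, 1 phosphatase fell, and 3 subunits rose and 1 fell.

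**Figure D1:**
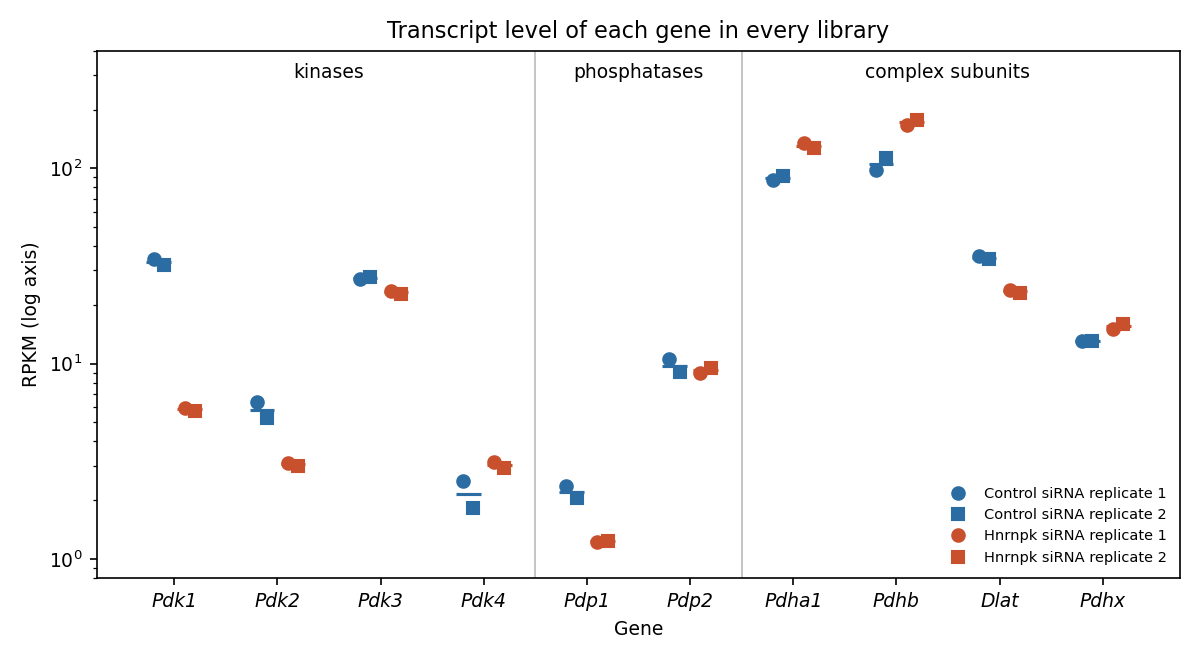
RPKM (log axis) of the 10 genes in each of the 4 libraries. Circles and squares are replicates 1 and 2, blue control siRNA and red Hnrnpk siRNA, and short lines the group means. Pdk1 drops from 33.3 to 5.82 RPKM, Pdha1 and Pdhb rise, and the groups overlap for Pdp2.

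Pdk1 (ENSMUSG00000006494; GENCODE M21 on GRCm38, chromosome 2, 71873224 to 71903858, plus strand) measured 34.5 and 32.1 RPKM with control siRNA, against 5.96 and 5.69 RPKM with Hnrnpk siRNA. The gap between the groups was far wider than the distance within either pair, and no library came near the other group. The means were 33.3 ± 1.67 and 5.82 ± 0.192 RPKM (SD, n = 2 each), a ratio of 5.72 and a log2 change of -2.42 (SE 0.0710). On the scale of log2(RPKM + 0.5), none of the 12486 genes tested had a lower log2 change. That rank depends on the scale: Slfn9 and C1ql1 had larger ratios of mean RPKM, 8.24 and 6.12. Over 15 alternative analyses, Pdk1 remained called, with log2 changes between -2.50 and -2.33. Slfn9 and C1ql1 reached -2.86 and -2.53 at the lowest in these analyses. Pdpk1, an unrelated signalling kinase whose protein is also abbreviated PDK1, went from 11.1 and 11.1 RPKM to 9.16 and 8.40 RPKM (log2 change -0.33, SE 0.0742, limma adjusted p = 0.00338).

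The nearest tested gene beside Pdk1 was not called. Itga6, an integrin gene that ends 14808 bases before the start of Pdk1, measured 22.7 and 21.9 RPKM with control siRNA, against 23.7 and 21.9 RPKM after Hnrnpk siRNA (log2 change 0.03, SE 0.0683, limma adjusted p = 0.732), and its direction depended on the analysis, with log2 changes between -0.06 and 0.10. Rapgef4, the next gene of the table on the other side, was below 0.05 RPKM in every library and was not tested. The 250 bases upstream of the first base of Pdk1 are shown because this is the member that changed most and because hnRNP K is known to bind C-rich DNA and RNA. The stretch is chr2:71872974-71873223 of GRCm38.p6, plus strand, from RefSeq, and capitals mark runs of CCCC on either strand.

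Pdk1: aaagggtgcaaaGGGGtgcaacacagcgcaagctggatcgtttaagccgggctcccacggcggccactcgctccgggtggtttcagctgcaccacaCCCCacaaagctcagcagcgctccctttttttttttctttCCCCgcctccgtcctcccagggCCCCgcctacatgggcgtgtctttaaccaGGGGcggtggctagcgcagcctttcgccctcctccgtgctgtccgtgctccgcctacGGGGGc

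CCCC on either strand covered 25 of these 250 bases, and 16.3% of 32851 promoter windows of this length held as many or more. CCCC at least once is common, in 83.1% of the windows. The core bound by hypoxia-inducible factors is ACGTG or GCGTG, and both forms were searched for on both strands, the latter added after the data were seen. This window held GCGTG at 1 place and no ACGTG. Of all windows, 28.2% held GCGTG, 16.6% held ACGTG and 6.02% held CACGTG, which contains ACGTG. A second Pdk1 start in the RefSeq table, 1680 bases further in, held no CCCC in the 250 bases before it.

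The other kinases changed less, and not in one direction. Pdk2 (ENSMUSG00000038967, chromosome 11, 95026258 to 95041354, minus strand), a kinase found in most tissues, measured 6.34 and 5.24 RPKM with control siRNA, against 3.11 and 2.98 RPKM after Hnrnpk siRNA. Both Hnrnpk siRNA libraries lay well below both control libraries. It fell from 5.79 ± 0.781 to 3.05 ± 0.0933 RPKM (SD, n = 2 each), a log2 change of -0.82 (SE 0.0986).

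Pdk3 (ENSMUSG00000035232, chromosome X, 93764607 to 93832201, minus strand) measured 27.1 and 27.6 RPKM with control siRNA, against 23.7 and 22.7 RPKM after Hnrnpk siRNA. The groups did not overlap, but the step was small beside that of Pdk1. It fell by 0.23 on the log2 scale (SE 0.0633). Without Hnrnpk siRNA replicate 2 the log2 change was -0.20 and Pdk3 was no longer called.

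Pdk4 (ENSMUSG00000019577, chromosome 6, 5483351 to 5496309, minus strand), the kinase raised by fasting in muscle and liver, was the lowest of the kinases in the control libraries, at 2.50 and 1.81 RPKM. After Hnrnpk siRNA it measured 3.13 and 2.93 RPKM, above both control libraries, which themselves lay further apart than the Hnrnpk siRNA libraries. It rose from 2.15 ± 0.485 to 3.03 ± 0.136 RPKM (SD, n = 2 each), a log2 change of 0.42 (SE 0.121). The Pdk4 call was lost without Hnrnpk siRNA replicate 1 (0.38) and without the filter on low values (0.42 with a larger SE of 0.170). The size rested on the control libraries too: it was 0.61 without control replicate 1 and 0.24 without control replicate 2.

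The coding sequences of the kinase genes could be told apart by error-free reads longer than 29 bases. Pairs of the 4 kinases shared 65.2% to 68.5% of aligned coding bases in GENCODE M21 transcripts. The longest stretch that any pair of them had in common was 29 bases, between Pdk3 and Pdk4, from coding base 970 of Pdk3 and 988 of Pdk4. It is shown because it is the longest stretch that an error-free read could match in both coding sequences, and capitals mark the identical bases. Read length and mismatched reads were not examined.

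Pdk3 and Pdk4: TTTGGTTATGGCTTGCCAATTTCTCGTCT

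Summed over the 4 kinases, the level was 70.4 and 66.8 RPKM in the control libraries and 35.9 and 34.3 RPKM after Hnrnpk siRNA, which is 68.6 ± 2.55 and 35.1 ± 1.10 RPKM (SD, n = 2 each). The kinase sum was thus 1.96 times higher in the control libraries. Without Pdk1, the other 3 kinases summed to 35.3 ± 0.881 and 29.3 ± 0.908 RPKM (SD, n = 2 each), a ratio of 1.21. Most of the difference in the sum was Pdk1.

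The make-up of the kinase pool changed with it. Pdk1 held 49.0% and 48.1% of the sum in the control libraries and 16.6% in each Hnrnpk siRNA library. Pdk3 held 38.5% and 41.4%, and then 66.0% and 66.2%, so the leading kinase transcript changed from Pdk1 to Pdk3. The Pdk4 share went from 3.55% and 2.71% to 8.72% and 8.55%. The share of Pdk2 overlapped between the groups, at 9.005% and 7.84% and then 8.68% and 8.69%. These shares are of RPKM, not of protein or of kinase activity. An exact permutation test of 2 libraries against 2 cannot give a two-sided p below 0.333, so none is given for the sums and ratios.

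**Figure D2:**
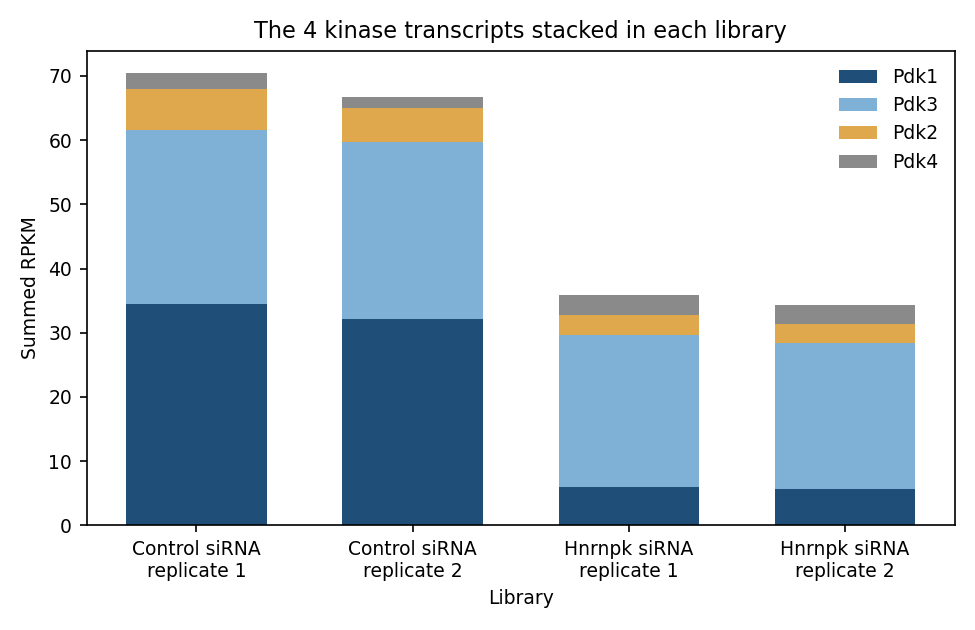
Stacked RPKM of Pdk1, Pdk3, Pdk2 and Pdk4 in each library, with bars starting at 0. The bars reach 70.4 and 66.8 RPKM in the control libraries and 35.9 and 34.3 RPKM in the Hnrnpk siRNA libraries, and the Pdk1 segment is the part that shrinks most.

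The phosphatases were the lower side of the switch in every library. Pdp1 (ENSMUSG00000049225, chromosome 4, 11958184 to 11966452, minus strand), the calcium-sensitive phosphatase, measured 2.35 and 2.05 RPKM with control siRNA, against 1.23 and 1.23 RPKM after Hnrnpk siRNA. The groups did not overlap, and the pair after Hnrnpk siRNA was nearly identical. It fell by 0.64 on the log2 scale (SE 0.0949). At this level the constant of 0.5 RPKM added before taking logs matters: the log2 change was -0.79 with an added 0.1 RPKM and -0.52 with an added 1 RPKM.

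Pdp2 (ENSMUSG00000048371, chromosome 8, 104591451 to 104599026, plus strand), the other catalytic phosphatase, measured 10.6 and 9.01 RPKM with control siRNA, against 8.97 and 9.50 RPKM after Hnrnpk siRNA. The groups overlapped. It was the member that was not called, with a log2 change of -0.07 (SE 0.0873), and without control replicate 1 the sign turned, to 0.033. Pdpr, the regulatory subunit of the phosphatase, measured 13.4 and 13.8 RPKM and then 15.4 and 14.2 RPKM (log2 change 0.11, SE 0.0708, limma adjusted p = 0.189).

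Pdp2 made up 81.8% and 81.5% of the phosphatase sum in the control libraries and 88.0% and 88.5% after Hnrnpk siRNA. The kinase sum was 5.46 and 6.04 times the phosphatase sum in the control libraries and 3.52 and 3.20 times after Hnrnpk siRNA. The phosphatase sums themselves lay close together, at 12.0 ± 1.30 and 10.5 ± 0.376 RPKM (SD, n = 2 each), so the change in this ratio came mainly with the kinases.

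Both E1 subunits, the part that the kinases and phosphatases act on, rose. Pdha1 (ENSMUSG00000031299, chromosome X, 160122209 to 160138413, minus strand) measured 87.0 and 91.2 RPKM with control siRNA, against 135 and 127 RPKM after Hnrnpk siRNA. The groups lay far apart beside the spread within them. The means were 89.1 ± 2.94 and 131 ± 5.94 RPKM (SD, n = 2 each), a ratio of 1.47 and a log2 change of 0.55 (SE 0.0653). Pdha2, the copy known for its use in the testis, was below 0.13 RPKM in every library and was not tested.

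Pdhb (ENSMUSG00000021748, chromosome 14, 8165996 to 8173025, minus strand) measured 98.3 and 113 RPKM with control siRNA, against 166 and 178 RPKM after Hnrnpk siRNA. Both libraries of the knockdown lay above both controls. The means were 106 ± 10.6 and 172 ± 8.14 RPKM (SD, n = 2 each), a ratio of 1.63 and a log2 change of 0.70 (SE 0.0796), over a range of 0.59 to 0.80 in the alternatives. Its longest coding transcript matched 1079 bases of a processed pseudogene, Gm6123, at 97.0% identity. Gm6123 was not analysed here, and the treatment of reads with several matches was not given in the sources used here. To that extent the level of Pdhb is uncertain.

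Dlat, the E2 acetyltransferase, went the other way. Dlat (ENSMUSG00000000168, chromosome 9, 50634633 to 50659780, minus strand) measured 35.4 and 34.3 RPKM with control siRNA, against 23.9 and 23.1 RPKM after Hnrnpk siRNA. The libraries of each group lay within about 1 RPKM of each other. It fell from 34.8 ± 0.800 to 23.5 ± 0.557 RPKM (SD, n = 2 each), a log2 change of -0.56 (SE 0.0627), with -0.64 to -0.52 over the alternatives.

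Pdhx (ENSMUSG00000010914, chromosome 2, 103021075 to 103073513, minus strand), the E3 binding protein, measured 13.1 and 13.0 RPKM with control siRNA, against 15.1 and 16.0 RPKM after Hnrnpk siRNA. The groups did not overlap, and the change was the smallest of the subunits. It rose by 0.25 on the log2 scale (SE 0.0683). That call was lost without Hnrnpk siRNA replicate 2 (0.20) and when every library was rescaled to the same sum of RPKM (0.16). Dld, the E3 component, which the complex shares with the other 2-oxoacid dehydrogenases, measured 56.8 and 58.2 RPKM and then 54.2 and 53.0 RPKM (log2 change -0.10, SE 0.0603, limma adjusted p = 0.170). It was called lower under 3 alternatives, with the lowest at -0.20 when trends on GC content were removed, and its adjusted p was 0.0119 there.

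The 250 bases upstream of Pdha1, Pdhb and Dlat are shown because the E1 pair and E2 changed in opposite directions. They are chrX:160138431-160138680, chr14:8172993-8173242 and chr9:50659781-50660030 of GRCm38.p6, minus strand each, from RefSeq, with CCCC on either strand in capitals.

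Pdha1: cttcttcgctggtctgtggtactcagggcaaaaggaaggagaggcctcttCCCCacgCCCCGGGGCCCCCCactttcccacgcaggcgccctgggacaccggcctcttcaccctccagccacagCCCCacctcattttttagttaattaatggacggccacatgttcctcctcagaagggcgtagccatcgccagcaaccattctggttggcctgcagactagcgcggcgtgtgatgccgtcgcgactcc

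Pdhb: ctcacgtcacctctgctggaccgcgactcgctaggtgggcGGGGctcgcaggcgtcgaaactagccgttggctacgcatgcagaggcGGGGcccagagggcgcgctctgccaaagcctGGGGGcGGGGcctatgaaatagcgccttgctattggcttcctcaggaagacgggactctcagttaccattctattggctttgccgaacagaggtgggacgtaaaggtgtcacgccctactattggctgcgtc

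Dlat: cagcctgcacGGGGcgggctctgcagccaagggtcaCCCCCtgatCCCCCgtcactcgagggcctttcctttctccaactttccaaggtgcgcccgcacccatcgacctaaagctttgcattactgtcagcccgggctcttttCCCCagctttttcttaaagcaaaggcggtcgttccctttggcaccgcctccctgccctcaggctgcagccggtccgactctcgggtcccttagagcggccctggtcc

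CCCC on either strand covered 22 bases upstream of Pdha1, 17 upstream of Pdhb and 18 upstream of Dlat, and 20.5%, 31.6% and 28.2% of all windows held as many or more. Promoters of 9 of the 10 genes were in the table, not that of Pdp1, and the window at the first start of each of the 9 held CCCC. ACGTG was in the windows of 4 of the 9, Pdk2, Pdk3, Pdp2 and Pdhb, against 16.6% of all windows. In Pdk2 and Pdp2 it lay within CACGTG, which 6.02% of all windows held. GCGTG was in the windows of 6, Pdk1, Pdk3, Pdk4, Pdha1, Pdhb and Pdhx, against 28.2% of all windows. The windows compared were not matched for GC content. The motif of the factor NRF1 and the letters CCGGAAG of ETS factors, which are common upstream of genes for mitochondrial proteins, were in none of the 9, against 3.74% and 6.91% of all windows.

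The ratios between subunits within a library show the same divergence. Pdhb over Pdha1 was 1.13 and 1.24 in the control libraries and 1.23 and 1.40 after Hnrnpk siRNA, so the ratio within E1 overlapped between the groups. Pdha1 over Dlat went from 2.46 and 2.66 to 5.65 and 5.48, and Pdhb over Dlat from 2.78 and 3.31 to 6.96 and 7.69. Dlat over Pdhx went from 2.71 and 2.63 to 1.58 and 1.44. Pdha1 over Dld went from 1.53 and 1.57 to 2.49 and 2.39. The kinase sum over Pdha1, the substrate of the kinases, was 0.809 and 0.732 in the control libraries and 0.266 and 0.271 after Hnrnpk siRNA, lower by a factor of 2.87. The ratios within a library do not depend on the scaling of that library.

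**Figure D3:**
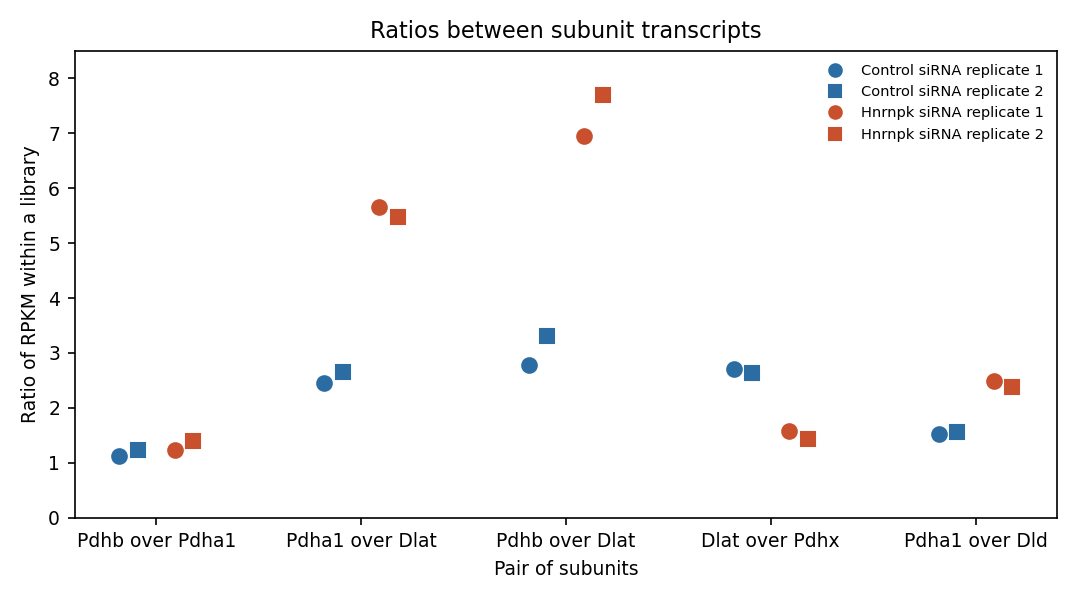
Ratios of RPKM between pairs of subunit transcripts within each library, on an axis that starts at 0. Blue marks control siRNA, red Hnrnpk siRNA, circles replicate 1 and squares replicate 2. The groups overlap for Pdhb over Pdha1 and lie apart for the 4 other pairs.

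The order of levels among the 10 genes was Pdhb, Pdha1, Dlat, Pdk1, Pdk3, Pdhx, Pdp2, Pdk2, Pdp1 and Pdk4 in the control libraries. Libraries of neighbours in this order overlapped for Dlat and Pdk1 and for Pdp1 and Pdk4, which could not be ordered. After Hnrnpk siRNA the order was Pdhb, Pdha1, Dlat, Pdk3, Pdhx, Pdp2, Pdk1, Pdk2, Pdk4 and Pdp1, with overlaps for Dlat and Pdk3 and for Pdk2 and Pdk4. Pdk1 moved from place 4 to place 7, below Pdp2. In the control libraries Pdhb and Pdha1 were higher than 94.9% and 93.5% of the genes tested, Pdk1 than 80.0%, and Pdk4 and Pdp1 than 19.6% and 20.0%.

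Neighbouring genes did not in general share a member's direction. Pdha1 lies opposite Map3k15, a kinase gene on the other strand, and 603 exonic bases (16.1% of the exons of Pdha1) belong to both. Map3k15 fell while Pdha1 rose, from 2.84 and 2.67 RPKM to 1.35 and 1.24 RPKM (log2 change -0.86, SE 0.0902, limma adjusted p = 2.68e-05). Library strandedness was not given in the sources used here, and reads of the shared bases cannot be told apart. Apip, 162 bases from Pdhx and read in the other direction, measured 21.2 and 23.9 RPKM and then 19.8 and 21.1 RPKM (log2 change -0.14, SE 0.0762, limma adjusted p = 0.126), and was called lower in 3 alternatives. Pxk, 879 bases from the end of Pdhb, was not called (log2 change -0.19, SE 0.0767, limma adjusted p = 0.0518) and was called lower in 3 alternatives. Sh3kbp1, the next tested gene beyond Pdha1, was not called (-0.12, limma adjusted p = 0.293). Kctd6, on the other side of Pdhb, was called lower (log2 change -0.23, SE 0.0765, limma adjusted p = 0.0246), a call lost under quantile scaling and without either Hnrnpk siRNA replicate (Kctd6 limma adjusted p of 0.0957, 0.168 and 0.107).

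Around the other members the picture was mixed. Itga3, 3120 bases from Pdk2, fell with it (log2 change -0.51, SE 0.0768, limma adjusted p = 0.000268), and Samd14, 171 bases from its other end, was not called (-0.21, limma adjusted p = 0.0717). Samd14 was called lower in 3 alternatives, with -0.27 the lowest, and had the opposite sign with GC trends removed (0.06). Pcyt1b, next to Pdk3, fell (log2 change -1.16, SE 0.0743, limma adjusted p = 1.45e-06), and AU015836 on its other side rose (0.65, limma adjusted p = 3.21e-05). Dlat lay between Pih1d2 (log2 change 0.23, limma adjusted p = 0.0723) and Dixdc1 (-0.15, limma adjusted p = 0.283), neither of which was called. Pih1d2 was called higher in 3 alternatives and was 0.12 without control replicate 1 and 0.33 without control replicate 2. Dixdc1 was called lower without control replicate 2 (-0.31) and had the opposite sign without control replicate 1 (0.014). The genes next to Pdk4 and Pdp1 were too low to be tested.

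Among the other parts of the machinery, the thiamine transporter gene Slc19a2 rose and the lipoate transferase gene Lipt2 fell. Of 9 tested partners of the complex outside the 10 genes, 3 were called higher, 3 lower and 3 not. Their median log2 change was -0.01, and of all genes tested 32.2% were called higher and 35.0% lower. Slc19a2, which brings in the vitamin from which the cofactor of E1 is made, went from 44.2 and 36.2 RPKM to 77.9 and 80.1 RPKM (log2 change 0.97, SE 0.0887). Lipt2, which starts the lipoylation that DLAT needs, went from 5.92 and 6.08 RPKM to 2.22 and 2.68 RPKM (log2 change -1.14, SE 0.0951). The limma adjusted p-values were 1.11e-05 for Slc19a2 and 6.5e-06 for Lipt2.

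Among genes of the sister complexes and their regulators, the 3 with the lowest p belonged to the 2-oxoglutarate dehydrogenase. Of 9 genes tested, 2 were called higher, 4 lower and 3 not, against 67.2% called in either direction over all genes tested, with a median log2 change of 0.03. Members of the 2-oxoglutarate dehydrogenase fell: Dlst from 81.8 and 75.8 to 60.9 and 63.0 RPKM (log2 change -0.35), Ogdhl from 34.7 and 28.6 to 22.7 and 22.9 RPKM (-0.46) and Ogdh from 103 and 98.5 to 81.8 and 82.9 RPKM (-0.29), each at a limma adjusted p of 0.00224 or lower. Ogdhl was not called without the filter on low values (limma adjusted p = 0.0812). Bckdha and Dbt of the branched-chain complex, named after their values were seen, rose by 0.26 and 0.20, and its kinase Bckdk fell by 0.23 on the log2 scale, while Bckdhb (0.04), the phosphatase Ppm1k (0.05) and Dhtkd1 (0.03) were not called. The kinase of that complex is a relative of the PDK family.

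Upstream of the complex, glycolysis held more genes that fell. Of 20 tested genes from glucose uptake to lactate export, 13 were called lower and 3 higher, against 35.0% and 32.2% of all genes tested, with a median log2 change of -0.39. Ldha, which turns pyruvate to lactate, fell from 456 and 476 RPKM to 168 and 187 RPKM (log2 change -1.39, SE 0.0743, limma adjusted p = 5.5e-07). Slc16a3, a lactate exporter, fell from 22.6 and 18.6 RPKM to 5.75 and 6.36 RPKM (log2 change -1.68, SE 0.0984, limma adjusted p = 8.91e-07). Tpi1, triose phosphate isomerase, fell from 223 and 197 RPKM to 96.8 and 95.8 RPKM (log2 change -1.12, SE 0.0737, limma adjusted p = 1.64e-06). The 3 that rose, named after their values were seen, were the glucose transporter Slc2a3 (0.75), Gpi1 (0.40) and Ldhb (0.23).

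Both transcripts of the carrier that brings pyruvate to the complex rose. Mpc1, listed as Brp44l, went from 0.589 and 0.706 RPKM to 1.29 and 1.37 RPKM (log2 change 0.68, SE 0.0987, limma adjusted p = 0.000225). It averaged only 0.989 RPKM, and its log2 change was 0.50 to 0.94 over the alternatives. A filter at 1 RPKM left it out. Mpc2, listed as Brp44, went from 5.82 and 6.23 RPKM to 8.87 and 10.02 RPKM (log2 change 0.61, SE 0.0841, limma adjusted p = 0.000162). Of the 8 genes tested on other routes of pyruvate, Mpc1 and Mpc2 included, 4 were called higher and 3 lower. Their median log2 change was 0.10, and of all genes tested 32.2% were called higher and 35.0% lower. Pck2, which makes phosphoenolpyruvate in mitochondria, fell from 23.5 and 31.3 RPKM to 11.5 and 11.7 RPKM (log2 change -1.19, SE 0.114, limma adjusted p = 1.54e-05).

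Downstream, genes of the citrate cycle and of acetyl-CoA supply were counted separately. Of 15 citrate cycle genes, 5 were called lower, 3 higher and 7 not, against 67.2% called over all genes tested. The median log2 change of the 15 was -0.04. Among them, Fh1, fumarase, fell from 82.1 and 79.4 RPKM to 49.6 and 52.3 RPKM (log2 change -0.66), and Suclg2, a succinyl-CoA ligase subunit, from 22.9 and 21.6 RPKM to 14.5 and 14.7 RPKM (-0.59), with limma adjusted p-values of 1.47e-05 and 4.04e-05. Of 5 genes for other enzymes and carriers around acetyl-CoA, 4 were called lower and none higher by limma, against 35.0% and 32.2% of all genes tested. The median log2 change of the 5 was -0.59. The citrate carrier Slc25a1 fell by 0.71, ATP citrate lyase Acly by 0.59 and the acetyl-CoA synthetase Acss2 by 1.10 on the log2 scale, each at a limma adjusted p of 2.91e-05 or lower.

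**Figure D4:**
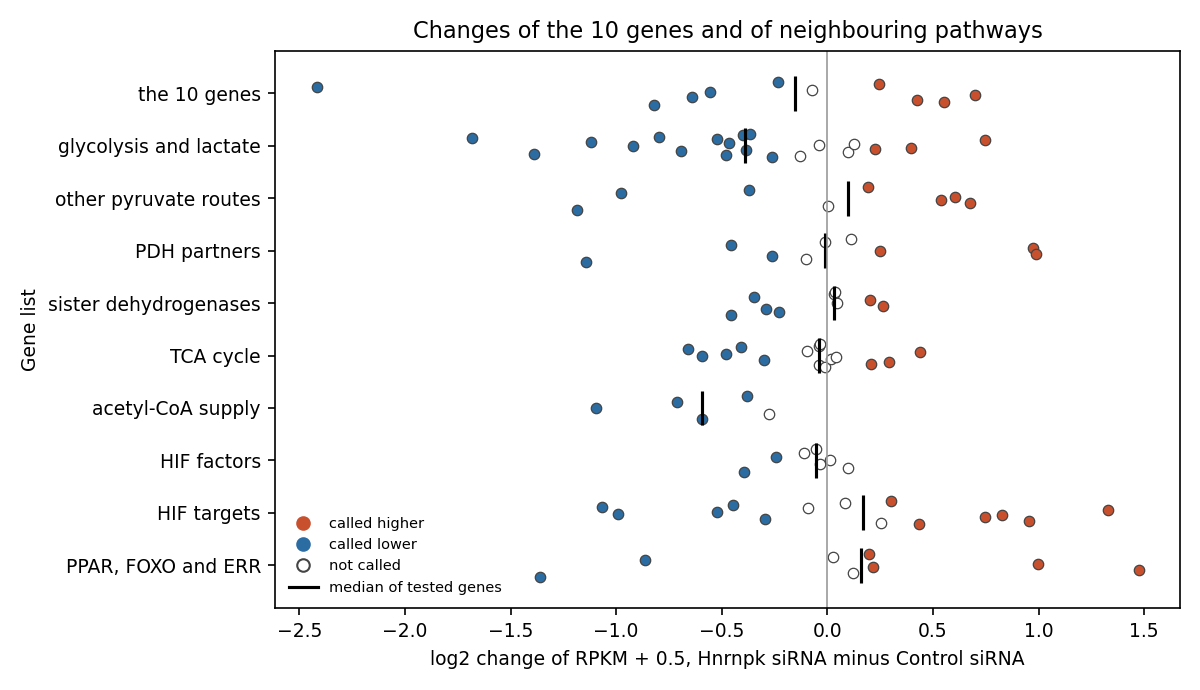
Log2 change (Hnrnpk siRNA minus control siRNA, RPKM + 0.5) of the 10 genes and of the tested genes of 9 neighbouring lists, 1 point per gene. Red points were called higher, blue lower and open points not, and black lines are list medians. Pdk1 is the point at -2.42, and 13 of the 20 glycolysis and lactate genes were called lower.

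Genes of the signals known to act on Pdk1 and Pdk4 were read beside them. Hif1a, the oxygen-regulated factor, measured 42.6 and 42.7 RPKM and then 45.5 and 40.6 RPKM, with overlapping groups (log2 change 0.01, SE 0.0703, limma adjusted p = 0.900), and its sign turned under 4 alternatives, with -0.08 the lowest. Of 7 genes for hypoxia-inducible factors and their regulators, 2 were called lower and none higher, against 35.0% and 32.2% of all genes tested. The 2 were Egln1 (-0.39) and Egln2 (-0.24). Neither was called without the filter on low values (limma adjusted p of 0.133 and 0.132). Egln1 was -0.24 without control replicate 1. Egln2 was not called without Hnrnpk siRNA replicate 1 (-0.15) and had the opposite sign with GC trends removed (0.02).

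Known targets of these factors outside glycolysis went both ways. Of 14 tested, 6 were called higher and 5 lower, against 32.2% and 35.0% of all genes tested. The median log2 change of the 14 was 0.17. Kdm3a rose from 36.8 and 37.8 RPKM to 73.7 and 71.9 RPKM (log2 change 0.96), Ddit4 from 16.2 and 14.0 RPKM to 35.6 and 41.9 RPKM (1.33) and P4ha2 from 3.26 and 2.96 RPKM to 5.54 and 6.26 RPKM (0.83), each at a limma adjusted p of 3.62e-05 or lower. Bnip3 and Egln3, named after their values were seen, fell by 1.07 and 0.99, from 13.5 and 7.496 RPKM to 4.41 and 4.68 RPKM for Bnip3. Control replicate 1 lay above control replicate 2 in 11 of these 14 genes, against 57.3% of all genes tested. Hnrnpk siRNA replicate 1 lay above replicate 2 in 8 of the 14. Whether the control libraries differed for these genes was not tested.

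For Pdk4, factors of the PPAR, FOXO and ERR families and their targets were measured. Of 8 tested, 4 were called higher and 2 lower, against 32.2% and 35.0% of all genes tested. The median log2 change of the 8 was 0.16. Foxo3 rose from 13.8 and 11.2 RPKM to 26.1 and 24.5 RPKM (log2 change 0.996), and Cpt1a, which admits fatty acids to mitochondria, from 14.6 and 10.8 RPKM to 36.2 and 35.4 RPKM (1.47). Esrra fell from 5.64 and 5.47 RPKM to 1.68 and 2.05 RPKM (-1.36). The highest limma adjusted p of these 3 was 1.51e-05. Ppara, Pparg and Ppargc1a were among those too low to be tested.

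The 5 genes whose centred log2 profile over the 4 libraries lay closest to that of Pdk1 were Slfn9, C1ql1, Egr1, Foxk2 and Mt3, at Euclidean distances of 0.177 to 0.323. They are also the 5 genes with the next lowest log2 changes after Pdk1, from -2.31 to -2.12. With 4 libraries in 2 groups, likeness of profile mostly restates the size of the change. None of the 5 belongs to the lists above.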

How the data were processed

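RNA-seq libraries from 2 control siRNA and 2 Hnrnpk siRNA samples were analysed. The deposited values are RPKM per gene, computed by the authors, with 1 column per library. The submitters' processing notes name BWA, SAMtools and the build mm9. The labels describe the RNA both as ribosome-depleted and as poly(A)-selected. The counting tool, annotation, strandedness and treatment of reads with several matches were not given in the sources used here.

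Values were analysed as log2(RPKM + 0.5), a scale that understates changes of low genes, for the 12486 genes that averaged 0.5 RPKM or more, with limma 3.58.1 (R 4.3.3; mean-variance trend, moderated two-sided test, Benjamini-Hochberg over all genes tested, called under 0.05). In simulated data, 200 of 12486 genes were given a change. There, 94% of changes of 0.5 and 99% of changes of 1 (log2) were called, and 16 of 209 calls were false. Far more genes were called in the real data (67.2%), so these rates need not hold for it. The 10 genes, the lists and the tests were chosen with earlier results of these data known. Named outside the 10 genes are Hnrnpk, Dld, Pdpr, Pdha2, Mpc1, Mpc2, Pdpk1 and Hif1a, up to 3 genes of each list by lowest p, the nearest neighbours of called members, the 5 profiles closest to Pdk1, and genes said to be named after their values were seen; a few genes that this rule names are not reported here.

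Positions are from GENCODE M21 on GRCm38 by Ensembl identifier (20551 of 22138 found), not the authors' build; promoters are from RefSeq, GRCm38.p6. Similar transcripts were searched with BLAST 2.17.0 (95% identity over at least 100 bases). Protein sequences were not used here. Of 152 list entries, 11 were not matched and not analysed here.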

Additional observations from a re-analysis of the deposited data

How the results depend on the processing

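The 10 genes were recomputed under 15 alternatives: an added 0.1 or 1 RPKM, a filter at 1 RPKM or none, median ratio and quantile scaling, the replicate number as a block, each library left out, no variance trend, GC or length trends removed, and an equal sum of RPKM, the last chosen after seeing the data. Of 150 such results, 144 kept direction and side of the threshold, 5 lost the call (Pdk3 once, Pdk4 and Pdhx 2 times each) and 1 turned, Pdp2 without control replicate 1 (0.033; without 1 library -0.18 to 0.033). The cause was not tested. The number of the 10 genes called was 7 to 9. With the replicate block it was 9, with 4162 genes called higher and 4460 lower in all against 4025 and 4371. No count moved by over 1.5 times with the block. Deviations of same-numbered libraries had r = 0.0267 over genes, which cannot tell whether those libraries were prepared together.

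Without the filter 3 sister dehydrogenases were called against 6, 4 genes of other pyruvate routes against 7, 1 HIF factor against 2 and 5 HIF targets against 11, with 22138 genes tested. HIF factors also numbered 1 with GC trends removed and 1 to 2 without 1 library. Signs turned for Hif1a (-0.032 quantile, -0.077 GC, -0.077 equal sum, and -0.070 to 0.092 without 1 library), Egln2 (0.019, GC), Samd14 (0.057, GC), Itga6 (-0.059 equal sum, and -0.029 to 0.085 without 1 library) and Dixdc1 (-0.31 to 0.014 without 1 library). With 2 libraries a group, every call rests on the variance pooled across genes.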
